A study of Rattus norvegicus with 2 samples.

Results

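The clade B serpins were followed here as 8 listed rat genes, Serpinb1a, Serpinb2, Serpinb5, Serpinb6, Serpinb7, Serpinb8, Serpinb9 and Serpinb10, of 15159 named genes with a probe on the array. A gene was taken as covered where a probe carried the accession of one of its transcripts, and the 8 genes had 10 probes and 24 unflagged spots. The current RefSeq symbol of the gene listed as Serpinb6 is Serpinb6a. The study used RMT-1 clone E4, a rat mammary tumour cell line, transiently transfected either with a negative control siRNA or with an siRNA against Pla2g4c, which encodes a cytosolic phospholipase A2. Cy3-labelled RNA of each was hybridised to 1 one-colour Agilent array, so there were 2 samples in all, 1 per group, and no replicate check or test was possible. The labels give no time after transfection. The members were chosen by family and with their differences between these same 2 arrays known, so their common direction is a description and not independent evidence.

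Serpins are protease inhibitors that offer an exposed loop as bait. The protease cuts the loop, the serpin folds the cut loop into its own central sheet, and the enzyme is left distorted and bound. Clade B members differ from the secreted serpins in that most lack a cleaved signal peptide and act inside the cell or are released without one. They are abundant in stratified epithelia and leukocytes, where they protect the cell against its own granule and lysosomal proteases. Serpinb5, also called maspin, is an exception that does not inhibit proteases by this route and was first described as a gene of normal mammary epithelium that is reduced in mammary tumours.

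The RefSeq promoter table (build GRCr8) held an entry for 7 of the 8 genes, and Serpinb8 was not among them. The 250 bases before the start are shown for 3 of the genes with the lowest differences between the arrays, Serpinb1a, Serpinb7 and Serpinb5, and for Serpinb2, whose difference was nearest to 0. Each is written 5′ to 3′ on the strand of the gene, and capitals mark every match on either strand to 1 of 7 searched motifs.
Serpinb1a chr17:31799196-31799445 (+ strand): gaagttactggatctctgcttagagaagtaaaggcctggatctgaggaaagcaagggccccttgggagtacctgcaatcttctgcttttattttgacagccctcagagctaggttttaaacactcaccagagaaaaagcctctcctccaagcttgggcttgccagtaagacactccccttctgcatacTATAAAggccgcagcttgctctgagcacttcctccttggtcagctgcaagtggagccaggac
Serpinb7 chr13:23910056-23910305 (+ strand): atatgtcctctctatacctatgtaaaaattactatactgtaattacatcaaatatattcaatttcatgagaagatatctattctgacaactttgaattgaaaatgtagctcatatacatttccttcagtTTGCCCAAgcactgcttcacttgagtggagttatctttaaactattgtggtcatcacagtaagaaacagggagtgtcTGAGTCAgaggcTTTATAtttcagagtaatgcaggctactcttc
Serpinb5 chr13:23499953-23500202 (+ strand): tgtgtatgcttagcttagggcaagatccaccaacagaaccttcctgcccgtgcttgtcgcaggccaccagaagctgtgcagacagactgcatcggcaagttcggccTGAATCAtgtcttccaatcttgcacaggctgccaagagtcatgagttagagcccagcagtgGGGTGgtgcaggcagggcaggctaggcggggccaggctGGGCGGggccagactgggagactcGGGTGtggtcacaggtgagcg
Serpinb2 chr13:24055771-24056020 (+ strand): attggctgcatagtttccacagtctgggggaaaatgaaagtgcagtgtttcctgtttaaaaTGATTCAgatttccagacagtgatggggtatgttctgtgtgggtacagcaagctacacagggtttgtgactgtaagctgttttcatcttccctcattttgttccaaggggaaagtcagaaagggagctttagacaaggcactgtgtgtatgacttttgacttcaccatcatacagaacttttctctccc

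The motif of the AP-1 factors, TGANTCA, occurred in Serpinb2, Serpinb5 and Serpinb7, that is in 3 of the 7 genes with an entry, and in 6.34% of all 33469 promoter entries of this length. In Serpinb7 the match began 44 bases before the start, in Serpinb5 144 bases and in Serpinb2 189 bases before it. TATAAA occurred in Serpinb1a, 62 bases before the start, and on the opposite strand in Serpinb7, 32 bases before it, against 12.9% of all entries. CACCC, a core letter string bound by KLF factors, occurred in 4 of the 7 genes against 49.2% of entries, and GGGCGG, the GC box, in 2 against 30.5%. TTGCNNAA, a loose C/EBP string, occurred in 3 genes against 9.22% of entries. The CRE, TGACGTCA, and GGANNTTCC, a part of the NF-kB site, occurred in 0 of the 7 genes, against 1.59% and 3.36% of entries. No matches of different motifs overlapped in the printed windows. A match is a string of letters in this window and not a measured site. AP-1 strings stood both before genes that differed by about 2-fold between the arrays and before Serpinb2, which hardly differed.

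The question here was how transcripts of this inhibitor family stood after transfection with the Pla2g4c siRNA, relative to the negative control. Every one of the 8 clade B serpins was measured on both arrays, and all 8 were lower on the Pla2g4c siRNA array once each array was scaled to its own 75th percentile. Serpinb1a stood lowest at 3.71-fold lower, Serpinb8, Serpinb7 and Serpinb5 were each lower by about 2-fold, Serpinb10, Serpinb6 and Serpinb9 by 1.33-fold to 1.47-fold, and Serpinb2 lay close to 0. Differences are given below on the log2 scale as Pla2g4c siRNA minus control, and each ± is an error computed by the scanner's own software, which leaves out any variation between cultures. The median of the 8 differences was -0.76, against -0.01 over all 9026 measured named genes. Of the 8, 3 were at least 2-fold lower, against 3.05% of all measured genes, and 0 were at least 2-fold higher, against 2.91%. Since 51% of all measured genes also lay below 0, and the genes were listed with this contrast known, nothing further is read from these counts.

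The direction is relative to the bulk of the genes. All 8 lay below 0 with normexp background correction, median scaling, quantile normalization, cyclic loess, the brightest probe, flagged spots kept and no filter on dim probes, but 7 did in the authors' deposited normalized values and 5 after scaling to spike-in RNAs. Of these 5, Serpinb10 stood at -0.006, in effect 0. The share of all genes below 0 was 59.1% with normexp and 62.3% without the filter. It was 37.2% in the deposited values and 11.5% after spike-in scaling. The median over all genes was itself 0.12 in the deposited values and 0.54 after spike-in scaling. All 8 were below the median of all genes under every one of these settings except that without the filter on dim probes, where 7 were.

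**Figure D1:**
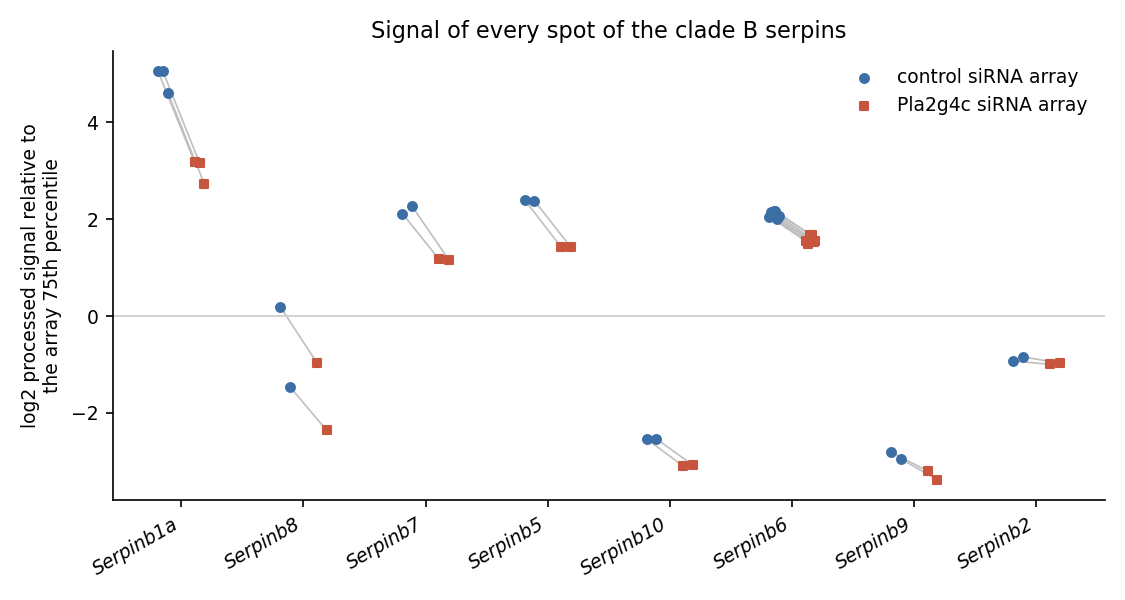
Each point is 1 unflagged spot of a clade B serpin, as log2 of the processed signal relative to the 75th percentile of its array (y axis), with control siRNA spots as blue circles and Pla2g4c siRNA spots as red squares; grey lines join the same spot on both arrays. In all 8 genes the red spots lie below the blue spots of the same probe, with the widest step in Serpinb1a (-1.89) and the narrowest in Serpinb2 (-0.10).

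The Pla2g4c siRNA array was the brighter one, with a 75th percentile of 1105 against 852, a ratio of 1.30, so equal processed signals on both arrays correspond to a lower scaled value on the Pla2g4c siRNA array. The signals printed below are processed signals before that scaling, in the scanner's linear intensity units, and are compared only between arrays for the same probe.

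Serpinb1a encodes an inhibitor of the neutrophil serine proteases elastase, cathepsin G and proteinase 3. Its first probe gave 28386 and 28374 in 2 spots in the control and 9993 and 9912 after the Pla2g4c siRNA. Its second probe gave 20904 in 1 spot on the control array and 7309 on the other. All 3 control spots were above all 3 Pla2g4c siRNA spots, and the 2 probes differed by -1.89 each, so that the gene differed by -1.89 ± 0.20. Of the 9026 genes 32 had a lower difference. Serpinb1a was the only one of the 8 at least 3-fold lower, against 0.72% of all measured genes, and it stayed at least 2-fold lower under every processing tried, from 2.54-fold with spike-in scaling to 3.72-fold with median scaling.

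Serpinb8 encodes an inhibitor of furin, a protease that matures secreted proteins. Its brighter probe gave 977 in the control and 567 after the Pla2g4c siRNA, and its dimmer probe 309 and 216, each in 1 spot. The 2 probes differed by -1.16 and -0.90, and their mean was -1.03 ± 0.20. The probes thus lay on either side of 2-fold, and with normexp background correction the gene was 1.82-fold lower.

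Serpinb7, also known as megsin, is expressed in kidney mesangial cells and in epidermis. Its 2 spots gave 3700 and 4098 in the control and 2495 and 2478 after the Pla2g4c siRNA, with no overlap, and the difference was -1.02 ± 0.20. It was 1.97-fold lower with cyclic loess and 1.85-fold lower in the authors' deposited table.

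Serpinb5, the maspin gene described above, gave 4510 and 4456 in the control and 2964 and 2954 after the Pla2g4c siRNA. The spots of the 2 arrays did not overlap, and the difference of -0.98 ± 0.20, or 1.97-fold lower, fell just short of the 2-fold line that Serpinb7 and Serpinb8 just passed. Serpinb5, Serpinb7 and Serpinb8 are therefore not distinguished by that line. The gaps between these neighbours in the order were 0.00 and 0.05, well inside a combined error of 0.29.

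Serpinb10, also called bomapin, is best known from haematopoietic cells. Its 2 spots gave 146 and 147 in the control and 129 and 131 after the Pla2g4c siRNA, and the difference was -0.55 ± 0.21. Serpinb6, an intracellular inhibitor of trypsin-like proteases and cathepsin G, had the best sampled probe, with 9 unflagged spots. They ran from 3431 to 3845 with a median of 3657 in the control and from 3098 to 3554 with a median of 3248 after the Pla2g4c siRNA. The unscaled ranges overlapped, the scaled ones did not, and the difference was -0.53 ± 0.20, with single spots between -0.66 and -0.48.

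Serpinb9 encodes the inhibitor of granzyme B, the protease with which cytotoxic lymphocytes kill their targets. It gave 121 and 110 in the control and 120 and 106 after the Pla2g4c siRNA, near equality before scaling, and a scaled difference of -0.41 ± 0.21. Serpinb2, plasminogen activator inhibitor 2, blocks urokinase and is a gene that inflammatory stimuli can induce strongly. It was the only member whose unscaled signal was higher on the Pla2g4c siRNA array, at 554 and 564 against 448 and 475. After scaling it differed by -0.10 ± 0.20, within the scanner's error, and in the authors' deposited table by 0.03.

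Ranked by difference, some neighbours among the 8 genes were apart by more than the scanner's error, which leaves out any variation between cultures. Serpinb1a was apart from Serpinb8 by 0.86 ± 0.29, Serpinb5 from Serpinb10 by 0.42 ± 0.29, and Serpinb9 from Serpinb2 by 0.32 ± 0.29, where each ± is the combined scanner error of both genes. The other 4 gaps between neighbours were smaller than that error. Of the 8 differences, 7 exceeded their own error and 6 exceeded 2 times their error. The share of all measured genes that did so was not counted, so nothing is read from these counts.

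**Figure D2:**
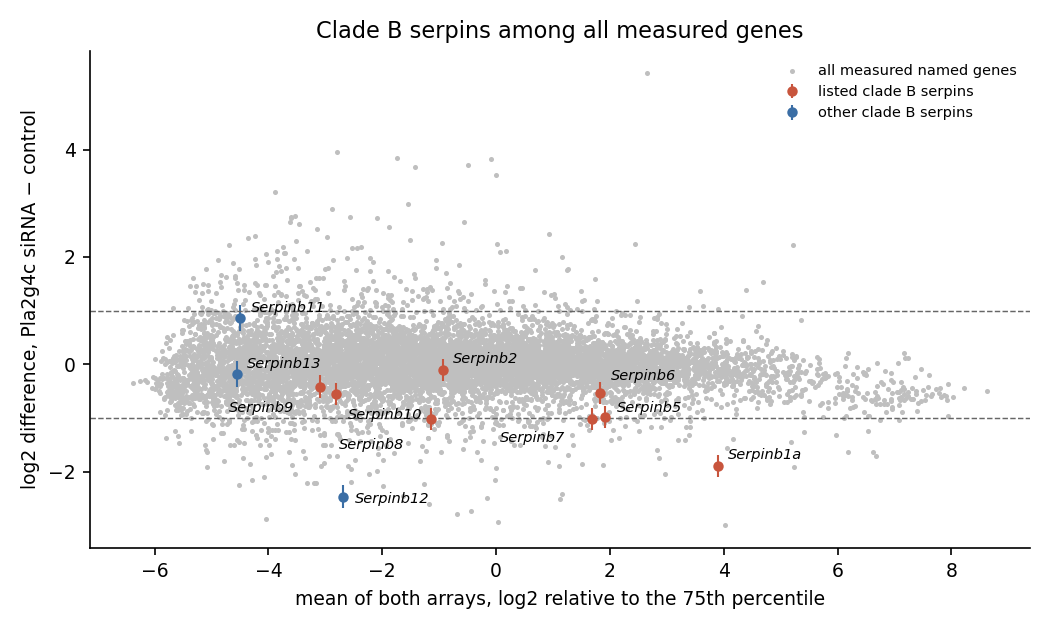
The log2 difference between the arrays (y axis, Pla2g4c siRNA minus control) is plotted against the mean log2 signal of both arrays relative to the 75th percentile (x axis) for 9026 measured named genes in grey, the 8 listed clade B serpins in red and 3 further ones in blue, with bars for the scanner error and dashed lines at 2-fold. Serpinb1a (-1.89) and the unlisted Serpinb12 (-2.46) lie at the lower edge of the cloud, while Serpinb2 (-0.10) lies within it.

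Bright genes as a whole lay somewhat below 0 in these data, with a median difference of -0.27 over the 417 genes above a mean log2 signal of 4 on that plot, and the 4 members that lay above the 75th percentile on both arrays were re-read with normalizations that remove a trend with signal. Quantile normalization gave Serpinb1a -1.71, Serpinb5 -0.97, Serpinb7 -1.01 and Serpinb6 -0.52, and cyclic loess gave -1.71, -0.92, -0.98 and -0.48. Each moved by less than its scanner error of 0.20, but that error is no measure of a trend with signal. Serpinb1a moved the most, towards 0 from -1.89. No member was among the 417 genes, since Serpinb1a, the brightest, stood at 4.84 in the control and 2.95 on the other array. The part of such a trend in the differences was not tested.

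Beyond the 8 genes, 5 further clade B genes had a named probe, and 3 of these were measured, each in 1 spot. Serpinb12, an epithelial inhibitor of trypsin-like proteases, gave 310 in the control and 72.8 after the Pla2g4c siRNA. Its difference of -2.46 ± 0.21, or 5.52-fold lower, was below that of every listed member, and 8 of the 9026 genes had a lower one. With normexp background correction it was 3.80-fold lower. Serpinb11 went the other way, with 28.0 and 66.0 and a difference of 0.86 ± 0.25, which was 0.24 with normexp. Serpinb13, an inhibitor of lysosomal cysteine cathepsins in squamous epithelium, gave 38.5 and 44.0, a difference of -0.18 ± 0.25. Serpinb6b was well above background in 7 of 10 spots on the control array and 8 of 10 on the other, with signals of at most 27.6, and Serpinb9d on neither array. Of all 11 measured clade B genes, 10 were below 0, against 51% of all measured genes, and 4 at least 2-fold lower, against 3.05%. Their median was -0.55. As 8 of the 11 were listed with this contrast known, these counts are a description only. Another 6 protein-coding clade B genes, Serpinb3, Serpinb3a, Serpinb6e, Serpinb6el1, Serpinb1b and Serpinb9b, were matched to no probe. Probe sequences were not used here, so signal shared between close paralogs was not analysed.

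In the rat genome these genes lie in 2 clusters, on chromosomes 13 and 17 of GRCr8, with 10 and 9 protein-coding clade B genes. Along the first, in order, came Serpinb5 (-0.98), Serpinb12 (-2.46), Serpinb13 (-0.18), then Serpinb11 (0.86), Serpinb7 (-1.02), Serpinb2 (-0.10), Serpinb10 (-0.55) and Serpinb8 (-1.03). Direct neighbours therefore differed widely: Serpinb12 and Serpinb13 were far apart, and Serpinb2, at the least difference of the 8, lay between Serpinb7 and Serpinb10. Along the second came Serpinb6 (-0.53), Serpinb9 (-0.41) and Serpinb1a (-1.89), the lowest listed member, at its end. The medians of the measured genes were -0.76 over 8 genes in the first cluster and -0.53 over 3 in the second. Each cluster held both genes at least 2-fold lower, 3 in the first and 1 in the second, and genes short of that.

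**Figure D3:**
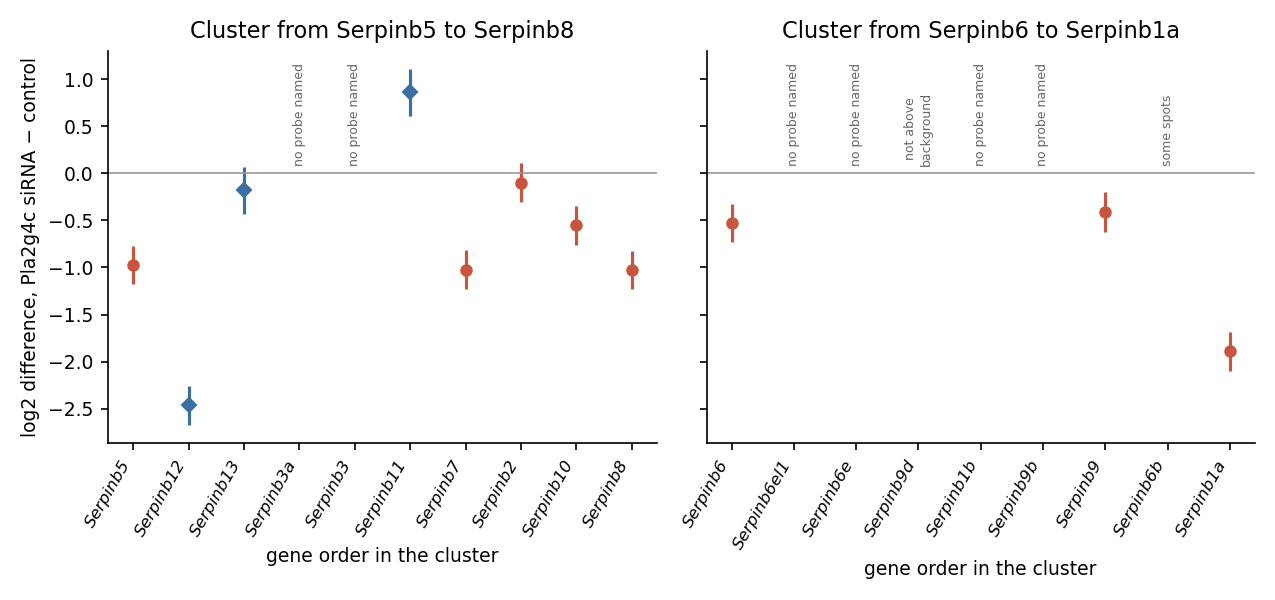
The log2 difference between the arrays (y axis, Pla2g4c siRNA minus control, bars for the scanner error) is shown for the clade B genes in their order along each of the 2 clusters (x axis, no distances drawn), with listed members as red circles, other genes as blue diamonds, and genes without a measured level marked in words. Values change from gene to gene along the first cluster, from -2.46 at Serpinb12 to 0.86 at Serpinb11.

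Of the 24 listed serpins of other clades, mostly secreted inhibitors, 8 were measured, 4 below and 4 above 0, and 0 differed at least 2-fold. Of all measured genes 3.05% were that far lower and 2.91% that far higher, so nothing is read from 0 of 8. Their median of 0.09 turned to -0.10 with normexp background correction and to -0.31 without the filter on dim probes. Serpini1, neuroserpin, was highest at 0.99 ± 0.32, which was 0.07 with normexp, and Serpina1, alpha-1 antitrypsin, lowest at -0.90 ± 0.20. Serpine2, protease nexin 1, an inhibitor of thrombin and urokinase, differed by 0.22 ± 0.20. Serpinh1, the collagen chaperone HSP47, differed by -0.29 ± 0.20. Serpinf2, alpha-2 antiplasmin, was well above background only after the Pla2g4c siRNA and had a bound of at least 1.81-fold higher, below the 2-fold line, and 10 of the other listed genes were above background on neither array.

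Lists that include proteases that clade B serpins are known to inhibit, and related genes, were then read. In the plasminogen activation list, 9 of 12 genes were measured, 5 above and 4 below 0, with a median of 0.03 and 0 at least 2-fold different. Against shares of 3.05% lower and 2.91% higher over all measured genes, nothing is read from that 0. The plasminogen activators Plat and Plau, targets of Serpinb2, differed by 0.99 ± 0.20 and 0.67 ± 0.20, and the urokinase receptor Plaur by 0.80 ± 0.23, which was 0.29 with normexp. S100a10, a cell surface plasminogen receptor subunit, was lowest of that list at -0.59 ± 0.20. After spike-in scaling the list's median was 0.57, near the 0.54 of all genes.

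Of the leukocyte granule proteases, a list that includes targets of Serpinb1a, Serpinb6 and Serpinb9, 0 of 17 genes with a probe were measured on both arrays, 13 were above background on neither and 4 in some spots only. Neutrophil elastase, Elane, gave 2.93 and 3.08, cathepsin G, Ctsg, 4.90 and 6.09, and granzyme B, Gzmb, 2.91 and 2.98 on the control and the Pla2g4c siRNA array, as mean signals. The transcripts of Elane, Ctsg and Gzmb were thus not detectable in either sample, while those of their inhibitors were.

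Furin, the target of Serpinb8, differed by 0.02 ± 0.20, and the proprotein convertase list had a median of -0.13 over 4 measured genes, from Mbtps1 at -0.29 ± 0.20 to Pcsk4 at 0.67 ± 0.21. Over all processing alternatives Pcsk4 ranged from 0.080 to 1.22. All 4 measured cysteine cathepsins were below 0, with a median of -0.22, Ctsc lowest at -0.66 ± 0.20 and Ctsf highest at -0.18 ± 0.21, and with spike-in scaling that median was 0.33. Ctsk was well above background only after the Pla2g4c siRNA, at least 1.52-fold higher. Of the membrane-bound serine proteases 6 were measured, with a median of -0.23 that turned to 0.32 with spike-in scaling. Prss22, a tryptase of epithelia, was 3.86-fold higher (1.95 ± 0.20), and Tmprss13 was lowest at -0.94 ± 0.25, which was -0.59 with normexp. Prss23 was well above background on the control array only and at least 8.45-fold lower.

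**Figure D4:**
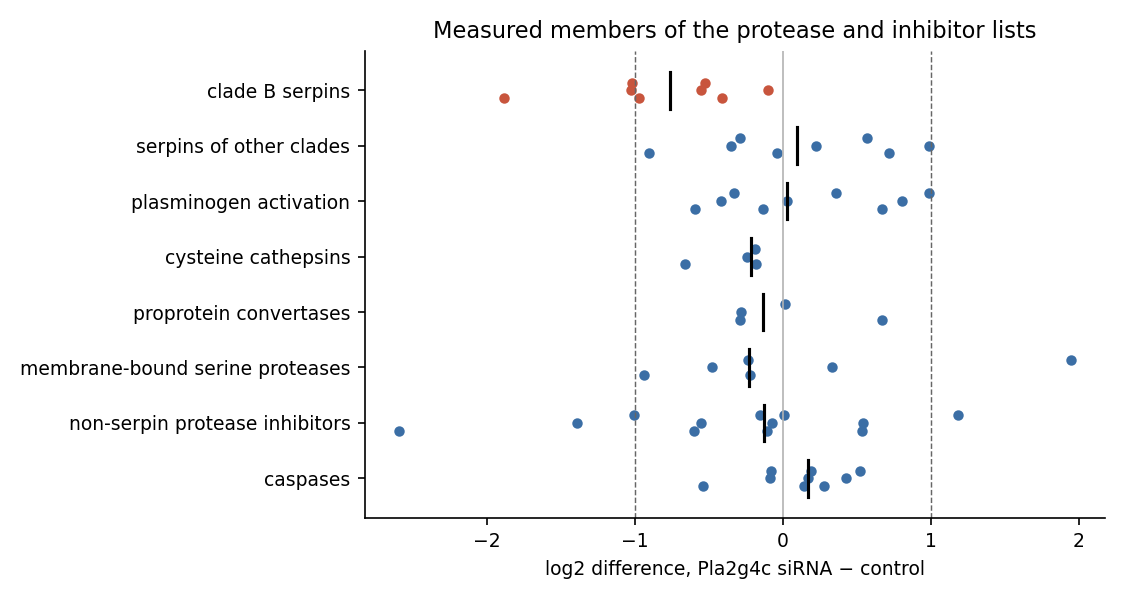
Each point is a measured gene of the list named on the y axis, placed by its log2 difference between the arrays (x axis, Pla2g4c siRNA minus control); black bars are list medians and dashed lines mark 2-fold. The clade B serpins, in red, all lie below 0 with a median of -0.76, while the medians of the other lists lie between -0.23 and 0.17.

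The labelled cell type was read from marker genes. Of 10 epithelial markers 8 were measured, among them the basal keratins Krt5 and Krt14 and the basal transcription factor Tp63, and Krt18 and Cldn7 were above background on neither array. The list was mixed in direction, with 5 genes below 0 and 3 above. At least 2-fold lower was 1 gene, against 3.05% of all measured genes, and at least 2-fold higher 1, against 2.91%. Krt5 differed by -1.72 ± 0.20, Krt14 by -0.97 ± 0.20, the cadherin gene Cdh1 by -0.63 ± 0.20, Krt19 by -0.30 ± 0.21 and Tp63 by -0.13 ± 0.20. The value for Tp63 depended on the processing and ranged from -0.54 to 0.42 over all alternatives. Epcam, an epithelial adhesion molecule, was 2.04-fold higher (1.03 ± 0.20), the luminal keratin Krt8 stood at 0.86 ± 0.27, which was 0.11 with normexp, and the claudin gene Cldn4 at 0.09 ± 0.20. The processed signals of the list summed to 471776 for the control and 278386 after the Pla2g4c siRNA, of which Krt14 gave 294890 and 194744 and Krt5 158215 and 62396. Krt5 and Krt14 were thus lower on the same array as Serpinb1a, Serpinb5 and Serpinb7, while Epcam was higher, and their part in the result was not tested. Since this is bulk RNA, fewer cells of a type and less RNA per cell cannot be told apart. Of 16 leukocyte markers with a probe 5 were measured, namely Cd14, Cd68, Cd3d, Csf1r and Lyz2. Cd14 had mean signals before scaling of 513 on the control array and 559 on the other, and a scaled difference of -0.25 ± 0.20. Another 9, among them Ptprc, Cd3e, Itgam and Adgre1, were above background on neither array, and 2 in some spots only. The leukocyte list summed to 911 and 975, the fibroblast list, with 2 of 8 measured, to 306 and 434, and the endothelial list, with 1 of 5, to 80.0 and 81.7. These sums and the epithelial one are of signals before scaling and take in genes not above background. The 75th percentile of the Pla2g4c siRNA array was 1.30 times that of the control, so no direction is read from the sums. By scaled difference the measured leukocyte markers ran from Cd68 at -0.39 ± 0.21 to Lyz2 at 0.60 ± 0.34, which turned to -0.10 with normexp. The fibroblast markers ran from Col1a2 at -0.26 ± 0.28 to Col1a1 at 0.13 ± 0.21, and the endothelial Cdh5 stood at -0.40 ± 0.23. The probe names used here led to 0 probes for Pla2g4c, so its transcript gave no check of the labels.

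The measured genes with differences nearest to that of Serpinb1a were Or2y11 (-1.89), Gjb2 (-1.89), which encodes the gap junction protein connexin 26, and Rnf152 (-1.88), the last of them 0.011 away on the log2 scale over the 2 arrays. With 2 arrays, likeness is a single difference, and 17 genes lay within 0.1 of Serpinb1a. Near Serpinb2 there were 1827 such genes, the nearest being U2af1l4, Arfgap1 and Cbs, so that likeness to it singles out no gene.

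**Figure D5:**
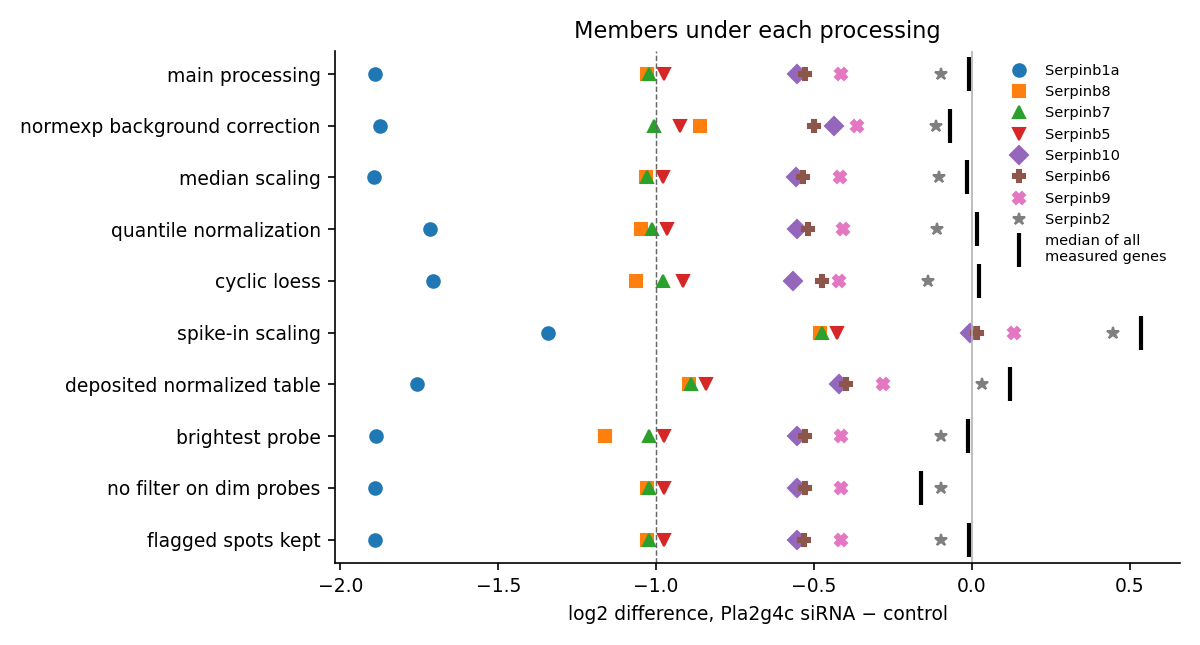
The log2 difference of each clade B serpin (x axis, Pla2g4c siRNA minus control) is shown under each way of processing the arrays (y axis), with 1 symbol per gene, a black tick for the median of all measured genes and a dashed line at 2-fold lower. Serpinb1a stays left of the dashed line in every row, Serpinb5, Serpinb7 and Serpinb8 stay near it except with spike-in scaling, and the genes move together with the median of all genes, which reaches 0.54 there.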

How the data were processed

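The authors deposited 1 scanner file per array with linear spot intensities and software flags. The submitters' processing notes name Agilent Feature Extraction 10.10, and the version per the file headers is 10.10.1.1. The processed signal has had background and spatial trend removed by that software. A further deposited table of normalized intensities equals it times 1.77 for the control and 1.50 for the Pla2g4c siRNA array, with the choice of constants not given in the sources used here.

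Each processed signal was divided by the 75th percentile of the gene spots of its array and taken to log2. Outlier spots of either array were dropped, and spots of a probe, then probes of a gene, averaged on the log2 scale. A probe counted as measured if every spot of it passed the well-above-background flag on the 2 arrays (16840 of 30367). At the level of spots 61.9% and 63.1% passed it in the control and the Pla2g4c siRNA array, and 0 were saturated. Precision is bounded by there being 1 array a group. The error of a difference is the software's signal error carried to log2 and is not reduced for repeated spots. Where a gene was well above background on 1 array only, a bound was taken against the dim array, using either the probe's own value there or the lowest value well above background, whichever was higher. Names came from RefSeq accessions (18006 probes). A planned comparison of protein sequences was not run, and some list members are not reported here.

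The genes and lists were chosen with earlier results of these data known. Named were all clade B genes, each list's highest and lowest measured member and those at least 2-fold different or with such a bound, and the 3 genes nearest in difference to the lowest and highest member. Target proteases, markers, Serpine2, Serpinh1, Serpinf2, Ctsk, Plaur, Cst3, Cst6, Cstb, Spint1 and Spint2 were named beyond that rule. With 1 array per group no test was run. Alternatives were normexp (offset 50, applied to spot medians), median scaling, quantile normalization, cyclic loess, scaling to 7 spike-in RNAs, the deposited table, the brightest probe, no filter on dim probes, flagged spots kept, and thresholds of 1.5-fold and 3-fold. The software was Python 3.11.15 (numpy 2.4.6, pandas 2.3.3, matplotlib 3.10.9) and limma 3.58.1 in R 4.3.3, and steps were tested on simulated data.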

Additional observations from a re-analysis of the deposited data

How the results depend on the processing

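The count of clade B serpins at least 2-fold lower was 3, and it was 1, Serpinb1a, with spike-in scaling, in the authors' deposited table and at a threshold of 3-fold. The share of all measured genes that far lower was 3.05% in the main processing. It was 0.753% with spike-in scaling, 2.12% in the deposited table and 0.72% at 3-fold, so it fell in these settings as well. Serpinb7 and Serpinb8 lay so close to the line that small shifts decided their place. At 2-fold higher the count was 0 under every alternative run, against 2.91% of all measured genes in the main processing. Spike-in scaling, which adds 0.55 to every difference, gave Serpinb2 0.45, Serpinb6 0.017 and Serpinb9 0.13 and so turned their direction, and gave list medians of -0.22 for the clade B serpins, 0.64 for serpins of other clades, 0.57 for plasminogen activation, 0.33 for cysteine cathepsins, 0.41 for proprotein convertases, 0.32 for membrane-bound serine proteases, 0.42 for non-serpin protease inhibitors and 0.72 for caspases, against 0.54 for all genes. Letting in dim probes gave serpins of other clades a median of -0.31. Under the other 8 processing alternatives each member's difference moved by less than its scanner error. No paired analysis was possible because each group has 1 array. With 1 array per group no array could be left out, and no setting shows how the differences would vary between cultures. With normexp the unlisted Serpinb11 went from 0.86 to 0.24 and Serpinb12 from -2.46 to -1.93, and signal over background limits such dim genes.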

Other observations

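Of 20 listed protease inhibitors outside the serpin family 12 were measured, 3 of them at least 2-fold lower, against 3.05% of all measured genes, and 1 at least 2-fold higher, against 2.91%. Their median of -0.13 turned to 0.041 with cyclic loess and to 0.00062 in the authors' deposited table. The cystatins of squamous epithelium, Stfa3 (-2.60 ± 0.21) and Csta (-1.40 ± 0.20), which inhibit cysteine cathepsins, and Spink5 (-1.01 ± 0.20), which restrains kallikreins in skin, were the 3 lower ones. Slpi, a secreted inhibitor of neutrophil elastase, was the higher one at 1.18 ± 0.20, or 2.27-fold. It shares that target with Serpinb1a, which lay in the opposite direction on the same arrays, and over all processing alternatives Slpi ranged from 1.01 to 1.73. Spink5 was -0.46 with spike-in scaling. The other cystatins differed by less, Cst3 by -0.60 ± 0.20, Cst6 by -0.55 ± 0.20 and the widely expressed Cstb by 0.01 ± 0.20. The Kunitz inhibitors of membrane-bound serine proteases, Spint1 and Spint2, stood at 0.53 ± 0.20 and -0.11 ± 0.20.

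Among caspases, some of which clade B serpins have been reported to bind, 9 of 10 were measured with a median of 0.17, from Casp14 (-0.54 ± 0.21) to Casp8 (0.52 ± 0.20), and 0 differed at least 2-fold. Against 3.05% lower and 2.91% higher over all measured genes, nothing is read from that 0. Casp1, the inflammasome caspase, had mean signals of 2.97 on the control array, not above background, and 97.5 after the Pla2g4c siRNA, and was at least 6.67-fold higher.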
